A study of Homo sapiens with 6 samples.

Results

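Histone lysine methyltransferases and demethylases are the enzymes that add methyl groups to lysines of the histone proteins and take them off again. They were taken here as 72 protein-coding genes, of 62696 genes in each table, chosen by symbol alone: the KMT, KDM, SETD, PRDM and SMYD families, together with EZH1, EZH2, EED, SUZ12, EHMT1, EHMT2, SUV39H1, SUV39H2, NSD1, NSD2, NSD3, ASH1L and DOT1L. Of these, 62 had enough reads to be tested and 10 did not. They are called enzymes below for short, although EED and SUZ12 are non-catalytic subunits and many PRDM proteins have no known activity. The choice of these genes and of the lists below was made with earlier results of these data known. The RNA came from 12Z, an established line of human endometriosis epithelial cells, all of the same passage and harvested 72 h after transfection. The 3 LINC01638 siRNA libraries received the siRNA labelled LINC01638_2 against the long noncoding RNA LINC01638, and the 3 control siRNA libraries received a commercial control siRNA. Both groups were grown in the same serum-containing medium and transfected with the same lipid reagent. The knockdown rests on 1 siRNA sequence in 1 cell line, without a rescue, and the labels do not say whether libraries of a group came from separate cultures, so the p-values cover only library-to-library spread, and that spread may be technical.

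The methyl marks are read by position. Methylation of lysine 4 of histone H3 (H3K4) accompanies active promoters and enhancers, methylation of H3K36 and H3K79 accompanies transcribed gene bodies, and methylation of H3K9, H3K27 and H4K20 accompanies silent or compacted chromatin. Most of the writers carry a catalytic SET domain and take the methyl group from S-adenosylmethionine, while the erasers are either flavin-dependent oxidases (KDM1A and KDM1B) or iron- and 2-oxoglutarate-dependent enzymes with a JmjC domain. EZH2, the main H3K27 methyltransferase, is one of the better studied of them in endometriosis.

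The libraries held 50470195 to 58148664 gene counts with LINC01638 siRNA and 45617234 to 55031286 with control siRNA. LINC01638 itself was at 2.29, 1.98 and 2.05 CPM (gene counts over the library's total, scaled by TMM, which balances libraries on their bulk of genes) in LINC01638 siRNA libraries, against 7.64, 7.65 and 7.81 in control siRNA libraries. Its log2 fold change, LINC01638 siRNA over control siRNA, was -1.87 (SE 0.111, edgeR adjusted p = 3.73e-11). The other genes of the study's title also passed the test: HDAC1 averaged 237 CPM with LINC01638 siRNA and 114 CPM with control siRNA, and RHOB averaged 130 CPM with LINC01638 siRNA and 509 CPM with control siRNA. Reads outside annotated exons of the counted strand, which include reads on exons of the opposite strand, are called reads outside exons below. They took 15.1%, 12.3% and 12.1% of mapped reads in LINC01638 siRNA libraries A, B and C. In control siRNA libraries A, B and C they took 8.32%, 9.18% and 10.1%. The part of this difference in the results below was not tested. Of 7 epithelial markers 5 were lower and 1 was higher with LINC01638 siRNA, and their summed level was 3180 to 3709 CPM against 5172 to 5618 CPM with control siRNA. Keratin 8 (KRT8) averaged 1813 CPM with LINC01638 siRNA and 2604 CPM with control siRNA, while the epithelial adhesion genes CDH1 (3.58 CPM with LINC01638 siRNA, 8.14 CPM with control siRNA) and EPCAM (1.38 CPM with LINC01638 siRNA, 0.377 CPM with control siRNA) were low in both. Stromal markers summed to 3309 to 3570 CPM with LINC01638 siRNA and 4366 to 5239 CPM with control siRNA, with 2 of 7 higher and 5 lower. Most of the stromal sum was COL1A1, which averaged 3107 CPM with LINC01638 siRNA and 4490 CPM with control siRNA. All 5 mesothelial markers were lower, at sums of 359 to 410 CPM with LINC01638 siRNA and 611 to 703 CPM with control siRNA. Markers of endothelium (sums of 10.5 to 12.5 CPM with LINC01638 siRNA, 12.8 to 15.4 CPM with control siRNA) and smooth muscle (4.85 to 7.60 CPM with LINC01638 siRNA, 5.11 to 6.28 CPM with control siRNA) were low. The 6 immune markers summed to 34.7 to 36.05 CPM with LINC01638 siRNA and 46.5 to 53.4 CPM with control siRNA. Most of that was CD14, at 34.6 CPM with LINC01638 siRNA and 48.9 CPM with control siRNA (lower, edgeR adjusted p = 5.00e-07). CSF1R was called higher, at 0.222 CPM with LINC01638 siRNA and 0.0689 CPM with control siRNA. CD3E had no counts, and PTPRC averaged 0.239 CPM with LINC01638 siRNA and 0.319 CPM with control siRNA. The part of these markers in the results was not tested.

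More of the chromatin enzymes were higher than lower after the knockdown. Of the 62 tested, 30 (48.4%) were higher and 11 (17.7%) were lower with LINC01638 siRNA at an edgeR adjusted p under 0.05, and 21 did not pass, written below as not called. The same rule called 26.3% of all 18569 genes tested higher and 29.6% lower, and 28.6% of the protein-coding genes tested higher and 36.3% lower. Counts in the short lists below are to be read beside these shares. The median log2 fold change was 0.10 over the tested enzymes, -0.00 over all genes tested and -0.04 over protein-coding genes. Most differences were small: the median absolute log2 fold change was 0.27 over the enzymes, against 0.33 over all genes tested. Together the enzymes took 5251 to 5576 CPM in LINC01638 siRNA libraries and 4767 to 5040 CPM in control siRNA libraries. In bulk RNA, fewer cells with a transcript and less of it per cell cannot be told apart.

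The split was similar among the more abundant enzymes. Of the 48 with a mean of at least 20 CPM, 24 (50.0%) were higher and 11 (22.9%) were lower, where 30.8% of protein-coding genes at that level were higher and 40.3% lower. Counted by libraries alone, 32 enzymes (51.6%) had every LINC01638 siRNA value above every control siRNA value and 12 (19.4%) had every one below, against 29.4% and 32.1% of all genes tested. Scaling by library totals alone moved the median of all genes by 0.10 on the log2 scale. It gave 34 enzymes higher and 8 lower, and 6349 higher and 4288 lower genes in all, where TMM scaling gave 4887 and 5503. These enzymes are encoded by long transcripts: their median exonic length was 7636.5 bases, against 5091 bases for protein-coding genes tested. Among the 31 at or above 7540 bases, a length reached by 3397 protein-coding genes, 18 (58.1%) were higher and 2 (6.45%) lower, while 33.6% of the protein-coding genes of that length were higher and 32.5% lower. Among the 31 shorter enzymes 12 (38.7%) were higher and 9 (29.03%) lower. No share was computed for shorter protein-coding genes, and over those of all lengths 28.6% were higher and 36.3% lower. The part of length in the split was not tested further.

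**Figure D1:**
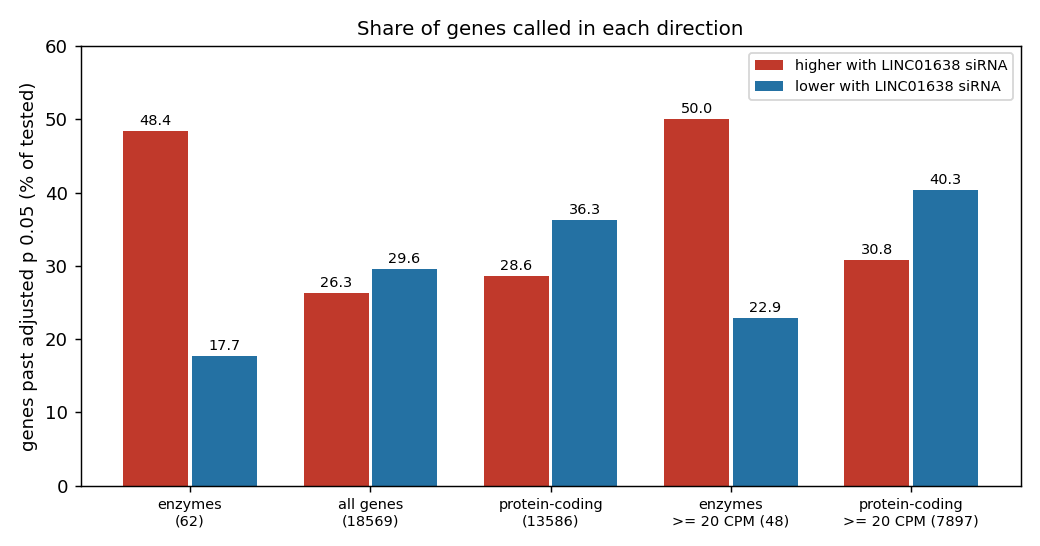
Bars give the percentage of tested genes past an edgeR adjusted p of 0.05, red for higher and blue for lower with LINC01638 siRNA, for the enzymes, all genes and protein-coding genes (number tested under each pair). The enzymes stand at 48.4% higher and 17.7% lower, against 26.3% and 29.6% of all genes.

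**Figure D2:**
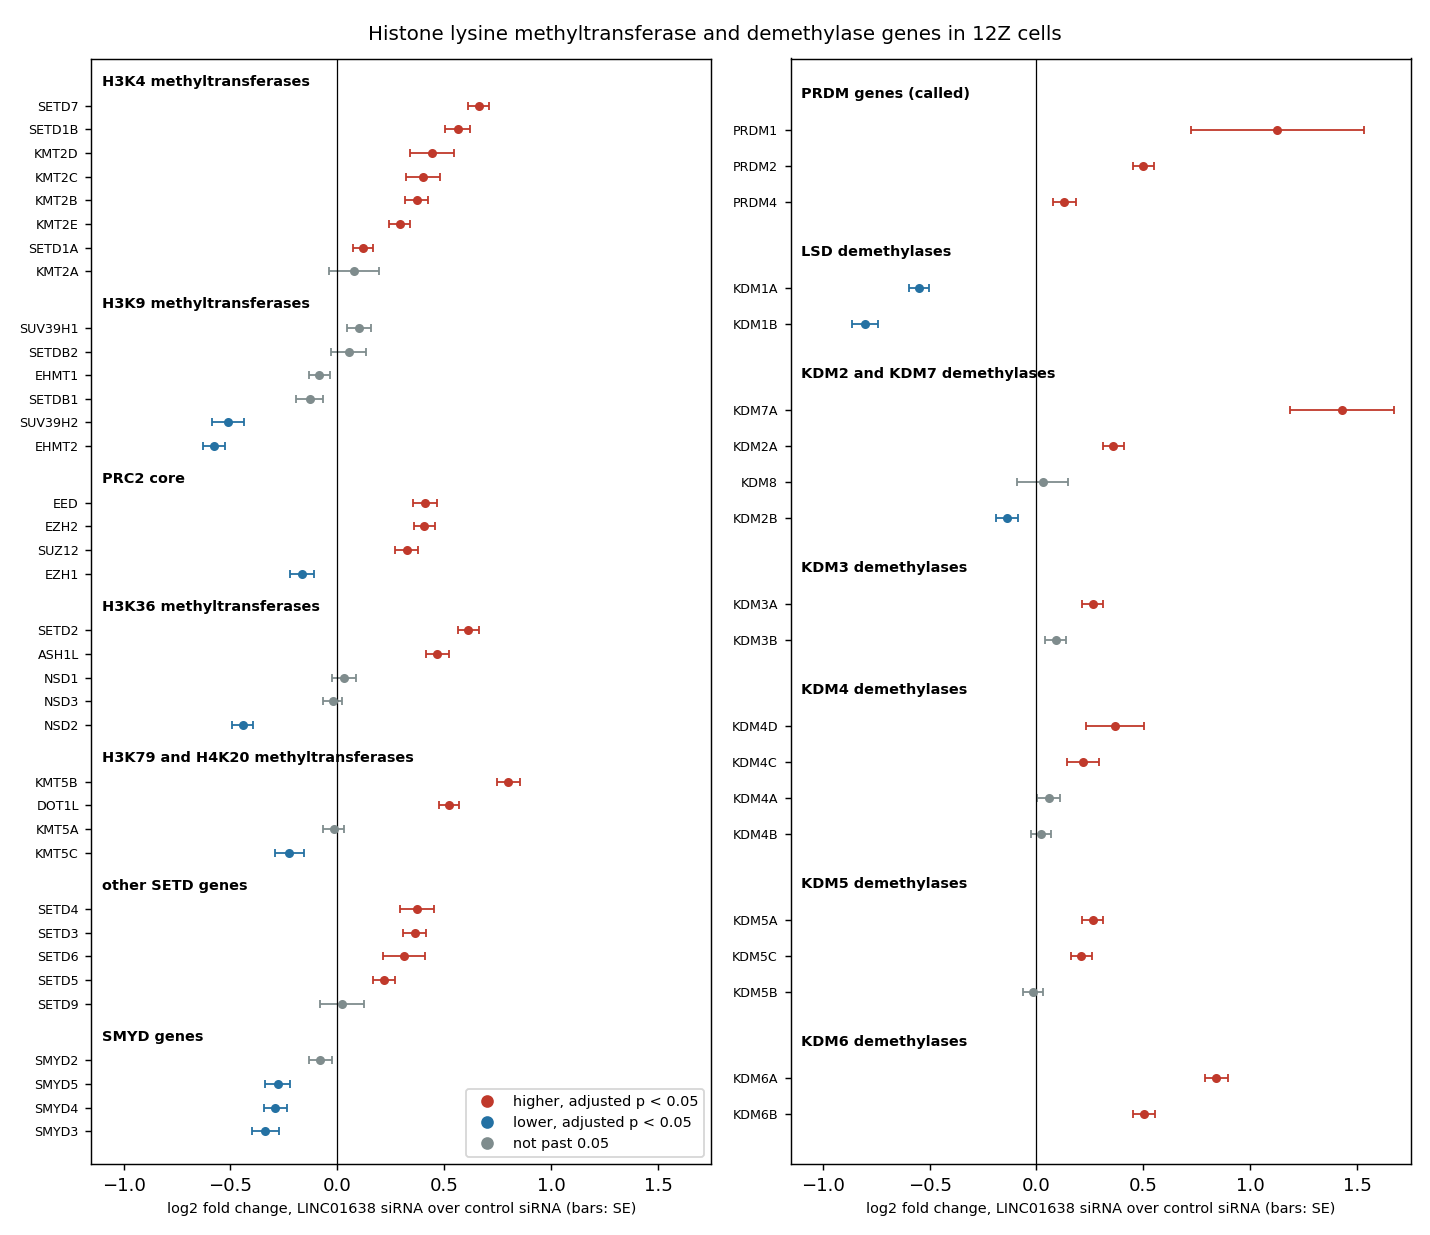
Each point is the log2 fold change (LINC01638 siRNA over control siRNA) of 1 enzyme with its standard error as a bar, grouped by role, with methyltransferases in the left panel and the called PRDM genes and the demethylases in the right. The points run from -0.80 for KDM1B to 1.43 for KDM7A, and both LSD demethylases lie left of 0 while both KDM6 demethylases lie right of it.

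A few enzymes moved by about 1.5-fold or more. At an absolute log2 fold change of at least 0.58 and a mean of at least 1 CPM, 5 enzymes were higher (KDM7A, KDM6A, KMT5B, SETD7 and SETD2) and 1 was lower (KDM1B). Of all genes tested, 11.1% passed that fold limit as higher and 12.1% as lower, counted without a limit on CPM. Without the limit on CPM, 7 of the 62 tested enzymes passed in either direction. SETD2 (0.613) lay just inside the limit, EHMT2 (-0.576) just outside it, and PRDM1 passed the fold limit at a mean of 0.264 CPM.

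**Figure D3:**
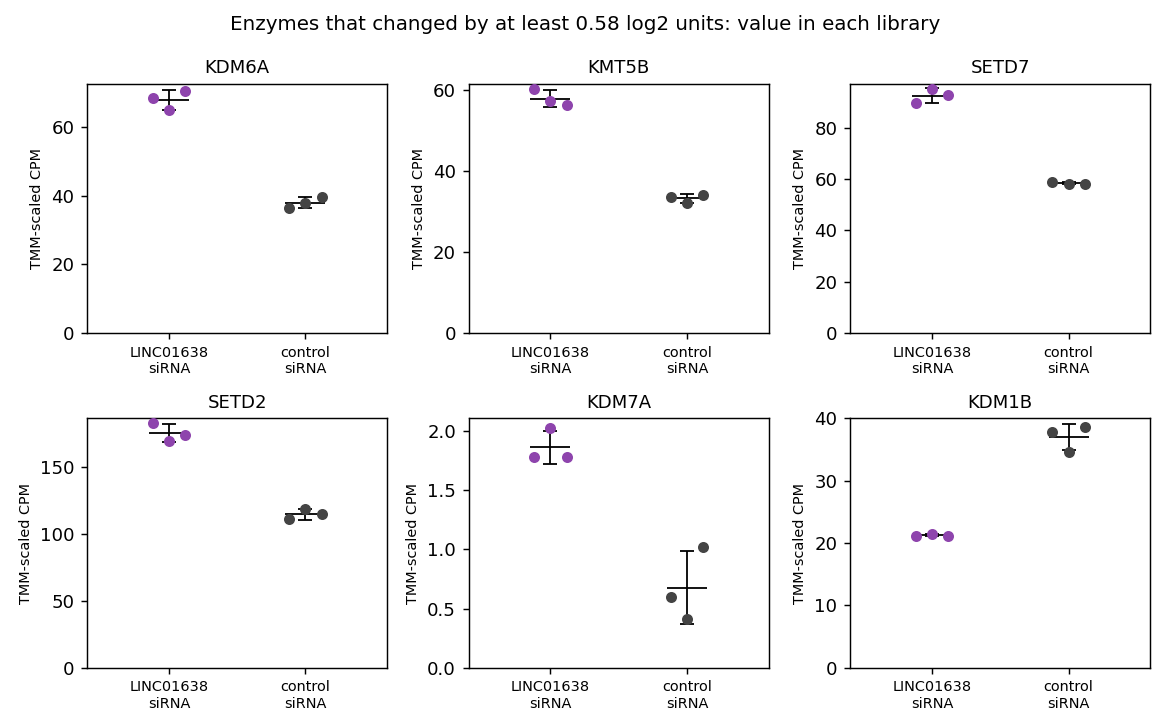
Each panel shows TMM-scaled CPM of 1 enzyme in the 3 LINC01638 siRNA libraries (purple) and the 3 control siRNA libraries (grey), with the mean and SD as lines. The groups do not overlap in any of the 6 panels, and KDM1B is lower with LINC01638 siRNA while the other 5 are higher.

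The genes listed here as writers of H3K4 methylation, the KMT2 and SETD1 families and SETD7, were mostly higher. Of these, 7 of 8 passed the test upward, none downward, and the median log2 fold change was 0.39. They were grouped by family, and the activity of each on H3K4 was not checked. The SMYD genes were listed apart, and SMYD3 among them was lower (-0.34). SETD7, which adds a methyl group to H3K4 and to several non-histone proteins (chromosome 4, 139495941 to 139606699, minus strand, GRCh38), was at 89.5, 95.1 and 92.8 CPM in LINC01638 siRNA libraries, against 59.0, 58.2 and 58.1 CPM in control siRNA libraries. The groups were far apart on the log2 scale (0.66, SE 0.0479, edgeR adjusted p = 5.98e-10). SETD1A, a catalytic subunit of the COMPASS complexes that trimethylate H3K4 and the most abundant of these writers per kilobase, was at 106, 99.3 and 105 CPM in LINC01638 siRNA libraries and 94.2, 97.8 and 92.8 CPM in control siRNA libraries. Those groups did not overlap, but the difference was small (0.12, SE 0.0477, edgeR adjusted p = 0.0388), and the call was lost under 6 of the 15 other settings, with adjusted p of up to 0.211. Its relative SETD1B moved further, by 0.56 (SE 0.0578, edgeR adjusted p = 7.38e-08). The MLL-type enzymes KMT2B (0.37), KMT2C (0.40) and KMT2D (0.44) were higher as well, as was KMT2E (0.29). KMT2C and KMT2D, which act at enhancers, varied between libraries. KMT2D was at 314, 259 and 242 CPM in LINC01638 siRNA libraries and 182, 220 and 196 CPM in control siRNA libraries. Its highest value was in the LINC01638 siRNA library with the largest share of reads outside exons. Its lowest was in the control siRNA library with the smallest share. KMT2C (254 and 156 CPM) and KMT2A had their highest and lowest values in the same libraries. Between control siRNA libraries B and C the order differed, as KMT2D was lower in C, which had the larger share. The part of these reads was not tested. Without control siRNA replicate A the adjusted p of KMT2D was 0.0764. KMT2A, at 223, 182 and 178 CPM in LINC01638 siRNA libraries and 160, 207 and 185 CPM in control siRNA libraries, overlapped between the groups and was not called (0.08, SE 0.118). KMT2C has pseudogene copies in the tables, so its counts are uncertain.

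The partner subunits of the COMPASS complexes were split between the directions. Of 15 listed, 6 were higher and 5 lower. The scaffold menin (MEN1) was at a log2 fold change of -0.80 (edgeR adjusted p = 5.40e-11), the core subunit RBBP5 was at 0.59 (edgeR adjusted p = 5.32e-09), and PAGR1, a subunit of the KMT2C and KMT2D complexes, was at -0.69 (edgeR adjusted p = 6.57e-07).

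Among the erasers of H3K4 methylation, both LSD demethylases, the flavin-dependent oxidases that remove its lower methylation states, fell. KDM1B (chromosome 6, 18155329 to 18223853, plus strand, GRCh38) was at 21.2, 21.5 and 21.2 CPM in LINC01638 siRNA libraries, against 37.8, 34.7 and 38.6 CPM in control siRNA libraries. It was 1.74-fold lower (log2 fold change -0.80, SE 0.0610, edgeR adjusted p = 1.19e-09). KDM1A, the oxidase of the CoREST repressor complex in which it works beside the deacetylase HDAC1, was at 119, 125 and 123 CPM in LINC01638 siRNA libraries, against 180, 181 and 175 CPM in control siRNA libraries. These groups were also far apart (-0.55, SE 0.0461, edgeR adjusted p = 4.36e-09). Among the JmjC demethylases of trimethylated H3K4, KDM5A was higher by 0.26 (edgeR adjusted p = 9.69e-05) and KDM5B was not called (-0.02). KDM5C, the most abundant of the 3 tested per kilobase, was at 195, 192 and 194 CPM in LINC01638 siRNA libraries and 159, 177 and 168 CPM in control siRNA libraries, a difference of 0.21 (SE 0.0491, edgeR adjusted p = 0.00121). KDM5D was below the filter on low counts.

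The promoter of KDM1B, the enzyme that fell most, is shown because it holds 3 copies of a word searched in all promoters. Words like those bound by E2F factors (TTCCCGC or TTGGCGC, either strand) were looked for in RefSeq promoters of 300 bases, and are in capitals here. The KDM1B promoter runs along the plus strand at chr6:18155172-18155471 (GRCh38.p14), from 250 bases before the RefSeq start site to 50 after it.
KDM1B: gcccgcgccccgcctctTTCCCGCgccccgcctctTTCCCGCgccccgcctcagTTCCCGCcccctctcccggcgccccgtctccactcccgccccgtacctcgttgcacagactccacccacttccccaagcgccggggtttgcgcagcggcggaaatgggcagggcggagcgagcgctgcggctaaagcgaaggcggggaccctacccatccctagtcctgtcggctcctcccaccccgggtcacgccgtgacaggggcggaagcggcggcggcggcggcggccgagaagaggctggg
All 3 copies lie 196 to 233 bases before the start site, in repeats of similar sequence. Of the 11 lower enzymes, KDM1A and NSD2 held such a word too, and of the 30 higher enzymes EZH2, SUZ12 and SETD6 did. The windows of 29 bases around the word in the lower KDM1A and NSD2 and the higher EZH2 and SUZ12 are set side by side, since the same words stood near the starts of genes that moved in opposite directions. KDM1A lies at chr1:23019455-23019483 on the plus strand, NSD2 at chr4:1871306-1871334 on the plus strand, EZH2 at chr7:148884272-148884300 on the minus strand and SUZ12 at chr17:31936808-31936836 on the plus strand.
KDM1A: cgggagcgcgcTTGGCGCgtgcgtacgcg
NSD2: ggcgcgcacttTTCCCGCggcttctgcga
EZH2: ggctgccgcgtTTGGCGCtcggtccggtc
SUZ12: gacccctaattTTCCCGCgaattcagttc
RefSeq gave 94 promoters for 64 of the 72 enzymes. The word stood in 3 of 15 promoters of lower enzymes (20%) and 3 of 37 promoters of higher enzymes (8.11%). It stood in 13.2% of the promoters of protein-coding genes tested. A second word, TTTGAA on either strand, like the element of late cell cycle genes, stood in 2 of 15 promoters of lower enzymes (13.3%, NSD2 and SUV39H2), 6 of 37 of higher enzymes (16.2%) and 10.6% of the promoters of protein-coding genes tested. A match describes the letters in this window and is no site of binding.

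Of the 6 H3K9 writers of the EHMT, SUV39H and SETDB families, 2 fell and none rose, at a median log2 fold change of -0.11. Of all genes tested 26.3% were higher and 29.6% lower, and of protein-coding genes 28.6% and 36.3%. The small counts in this paragraph lie near such shares and give no direction for the list. PRDM2, described with the PRDM genes, is also an H3K9 methyltransferase and was higher. EHMT2 (G9a), which with its partner EHMT1 makes mono- and dimethylated H3K9, was at 95.4, 107 and 103 CPM in LINC01638 siRNA libraries, against 152, 156 and 147 CPM in control siRNA libraries. The groups were separate (-0.58, SE 0.0508, edgeR adjusted p = 9.15e-09). SUV39H2, a trimethylating enzyme of heterochromatin, was at 24.4, 26.8 and 23.2 CPM in LINC01638 siRNA libraries and 39.4, 32.1 and 34.1 CPM in control siRNA libraries, lower by -0.51 on the log2 scale (SE 0.0751, edgeR adjusted p = 1.07e-05). EHMT1 (-0.08), SETDB1 (-0.13), SETDB2 (0.05) and SUV39H1 (0.10) were not called. Among 13 readers and cofactors of H3K9 methylation 3 were higher and 4 lower. The higher ones were ZNF644 (0.52), a partner of the EHMT enzymes, PPHLN1 (0.32), a subunit of the HUSH silencing complex, and ATF7IP (0.26), a partner of SETDB1. CBX5, the heterochromatin protein HP1 alpha that binds methylated H3K9, had the lowest p among the lower ones (-0.44, edgeR adjusted p = 9.71e-07).

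The KDM3 (2 tested) and KDM4 (4 tested) erasers of H3K9 methylation gave 3 higher genes and none lower, with small changes. In the KDM3 family, which removes mono- and dimethylation, KDM3A was higher by 0.26 (edgeR adjusted p = 0.000151). KDM3B, the more abundant per kilobase, was at 188, 178 and 187 CPM in LINC01638 siRNA libraries and 166, 180 and 173 CPM in control siRNA libraries. Its groups overlapped and it was not called (0.09, SE 0.0484, edgeR adjusted p = 0.124). In the KDM4 family, which acts on trimethylated H3K9 and in part on H3K36, KDM4C (0.22, edgeR adjusted p = 0.0192) and KDM4D (0.37, edgeR adjusted p = 0.0274) were higher, both below 20 CPM. The call of KDM4C was lost under 3 of the 15 other settings and that of KDM4D under 6. KDM4A was at 49.1, 44.7 and 47.1 CPM in LINC01638 siRNA libraries and 45.2, 46.6 and 43.6 CPM in control siRNA libraries, without a call (0.06, SE 0.0549). KDM4B was not called either (0.02).

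Both KDM6 enzymes, which remove H3K27 methylation, rose, and so did 3 of the 4 genes of the complex that adds it. KDM6A (UTX), an X-linked demethylase that sits in the KMT2C and KMT2D complexes (X, 44873177 to 45112602, plus strand, GRCh38), was at 68.5, 64.9 and 70.7 CPM in LINC01638 siRNA libraries, against 36.3, 38.0 and 39.6 CPM in control siRNA libraries. It was 1.79-fold higher (log2 fold change 0.84, SE 0.0545, edgeR adjusted p = 1.27e-10), the largest change among enzymes above 20 CPM. KDM6B (JMJD3), an inducible relative, was at 82.6, 76.3 and 85.1 CPM in LINC01638 siRNA libraries, against 56.2, 58.4 and 57.4 CPM in control siRNA libraries (0.50, SE 0.0520, edgeR adjusted p = 7.88e-08).

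In Polycomb repressive complex 2 (PRC2), the writer of H3K27 methylation, the catalytic subunit EZH2 was at 77.1, 76.5 and 78.3 CPM in LINC01638 siRNA libraries, against 57.1, 57.7 and 59.96 CPM in control siRNA libraries. The groups were separate (0.41, SE 0.0481, edgeR adjusted p = 4.90e-07). SUZ12, the scaffold and the most abundant core gene per kilobase, was at 132, 142 and 145 CPM in LINC01638 siRNA libraries and 116, 103 and 115 CPM in control siRNA libraries (0.33, SE 0.0549, edgeR adjusted p = 4.24e-05). EED, which binds the trimethylated mark, was higher by 0.41 (SE 0.0558, edgeR adjusted p = 3.20e-06). The alternative catalytic subunit EZH1 was lower, at 27.9, 29.3 and 29.6 CPM in LINC01638 siRNA libraries and 32.0, 32.4 and 32.9 CPM in control siRNA libraries (-0.17, SE 0.0570, edgeR adjusted p = 0.0184), and this call was lost under 4 of the 15 other settings: library totals, protein-coding genes only, without LINC01638 siRNA replicate A and without control siRNA replicate C. Of 9 tested accessory subunits 4 were higher, LCOR (0.58), the histone-binding RBBP4 (0.22) and JARID2 (0.22) among them, and 1 was lower, RBBP7 (-0.19). In Polycomb repressive complex 1, which works beside PRC2, 7 of 18 genes were higher and 5 lower, with BMI1 (0.54), RYBP (0.46) and RNF2 (0.39) at the lowest p. The shares over all genes tested were 26.3% higher and 29.6% lower.

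EZH2 is known to follow cell division, so proliferation markers are given beside it. Of 10 such markers 6 were lower and none was higher, and they summed to 2870 to 3011 CPM with LINC01638 siRNA and 3345 to 3500 CPM with control siRNA. Cyclin A2 (CCNA2) was at -0.91, cyclin B1 (CCNB1) at -0.39 and AURKA at -0.37, each past the threshold, while MKI67 was not called (-0.19). PCNA (-0.08), MCM2 (0.05) and CDK1 (0.05) were not called either. The part of proliferation in the values of the enzymes was not tested.

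The writers of marks on transcribed genes were mixed. SETD2, the enzyme that trimethylates H3K36 behind elongating RNA polymerase II (chromosome 3, 47016429 to 47163967, minus strand, GRCh38), was at 183, 169 and 174 CPM in LINC01638 siRNA libraries, against 111, 119 and 114 CPM in control siRNA libraries. It was 1.53-fold higher (log2 fold change 0.61, SE 0.0487, edgeR adjusted p = 2.16e-09). ASH1L, a dimethylating enzyme, was higher by 0.47 (edgeR adjusted p = 2.85e-07). NSD2, the most abundant writer of H3K36 dimethylation, was at 329, 317 and 314 CPM in LINC01638 siRNA libraries, against 427, 448 and 431 CPM in control siRNA libraries, which put it lower by -0.44 on the log2 scale (SE 0.0495, edgeR adjusted p = 2.42e-07). Its relatives NSD1 (0.03) and NSD3 (-0.02) were not called. DOT1L, the H3K79 methyltransferase and the one writer here without a SET domain, was at 205, 192 and 201 CPM in LINC01638 siRNA libraries, against 136, 144 and 136 CPM in control siRNA libraries (0.52, SE 0.0483, edgeR adjusted p = 1.71e-08). Of 8 DOT1L and elongation cofactors 3 were higher, AFF4 (0.33), MLLT6 (0.30) and MLLT10 (0.28), and 1 was lower, ELL2 (-0.13).

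Among the erasers of H3K36 methylation, KDM2A, which binds unmethylated CpG islands, was at 253, 242 and 254 CPM in LINC01638 siRNA libraries, against 188, 203 and 193 CPM in control siRNA libraries (0.36, SE 0.0489, edgeR adjusted p = 3.16e-06). KDM2B, which brings a form of Polycomb repressive complex 1 to CpG islands, was slightly lower (-0.14, edgeR adjusted p = 0.0330), a call that was lost under 11 of the 15 other settings. KDM7A, a demethylase of H3K9 and H3K27 (chromosome 7, 140084746 to 140177035, minus strand, GRCh38), had the largest fold change among the enzymes, from few reads. It had 97, 105 and 107 counts in LINC01638 siRNA libraries and 32, 18 and 54 counts in control siRNA libraries, or 1.78, 2.02 and 1.78 CPM against 0.601, 0.412 and 1.02 CPM. The groups did not overlap, and the control siRNA values were spread (log2 fold change 1.43, SE 0.243, edgeR adjusted p = 4.71e-05). KDM8 was not called (0.03).

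The H4K20 writers KMT5B and KMT5C, which make di- and trimethylated H4K20 of constitutive heterochromatin, moved apart. KMT5B (chromosome 11, 68154863 to 68213828, minus strand, GRCh38) was at 60.3, 57.4 and 56.3 CPM in LINC01638 siRNA libraries, against 33.7, 32.1 and 34.1 CPM in control siRNA libraries. It was 1.74-fold higher (log2 fold change 0.80, SE 0.0540, edgeR adjusted p = 2.23e-10). KMT5C was at 31.0, 27.2 and 33.2 CPM in LINC01638 siRNA libraries and 35.5, 36.8 and 34.5 CPM in control siRNA libraries, lower by -0.22 on the log2 scale (SE 0.0676, edgeR adjusted p = 0.00808), and its call was lost when libraries were scaled by their totals. KMT5A, which adds the first methyl group, was not called (-0.02), and its counts are uncertain because the tables also list processed pseudogenes of it.

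Ratios between close relatives do not depend on how libraries are scaled, and 16 pairs were compared per kilobase of exon. In 13 pairs the ratio did not overlap between the groups. No share over other gene pairs was computed, and among single genes tested 29.4% lay apart upward and 32.1% downward. An exact two-sided permutation test over 3 against 3 libraries cannot go below p = 0.1, which those 13 pairs reached (adjusted over the 16 pairs, 0.123). KMT5B over KMT5C was 1.08, 1.17 and 0.939 in LINC01638 siRNA libraries, against 0.525, 0.483 and 0.546 in control siRNA libraries. That pair differed most, by 1.03 on the log2 scale. SUV39H1 over SUV39H2 was 2.13, 1.92 and 2.28 in LINC01638 siRNA libraries, against 1.30, 1.52 and 1.33 in control siRNA libraries, a difference of 0.61. EZH2 over EZH1 was 4.26, 4.04 and 4.09 in LINC01638 siRNA libraries, against 2.75, 2.76 and 2.81 in control siRNA libraries, a difference of 0.57. The ratio also differed upward for KDM2A over KDM2B (0.49), EHMT1 over EHMT2 (0.49), KDM6A over KDM6B (0.34), KDM5A over KDM5B (0.28), SMYD2 over SMYD3 (0.26), KDM1A over KDM1B (0.25) and KDM3A over KDM3B (0.17). It differed downward for NSD2 over NSD1 (-0.47), SETD1A over SETD1B (-0.45) and KMT2A over KMT2B (-0.29). SETDB1 over SETDB2, KMT2C over KMT2D and KDM4A over KDM4B overlapped, at exact permutation p of 0.2, 0.2 and 0.3.

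**Figure D4:**
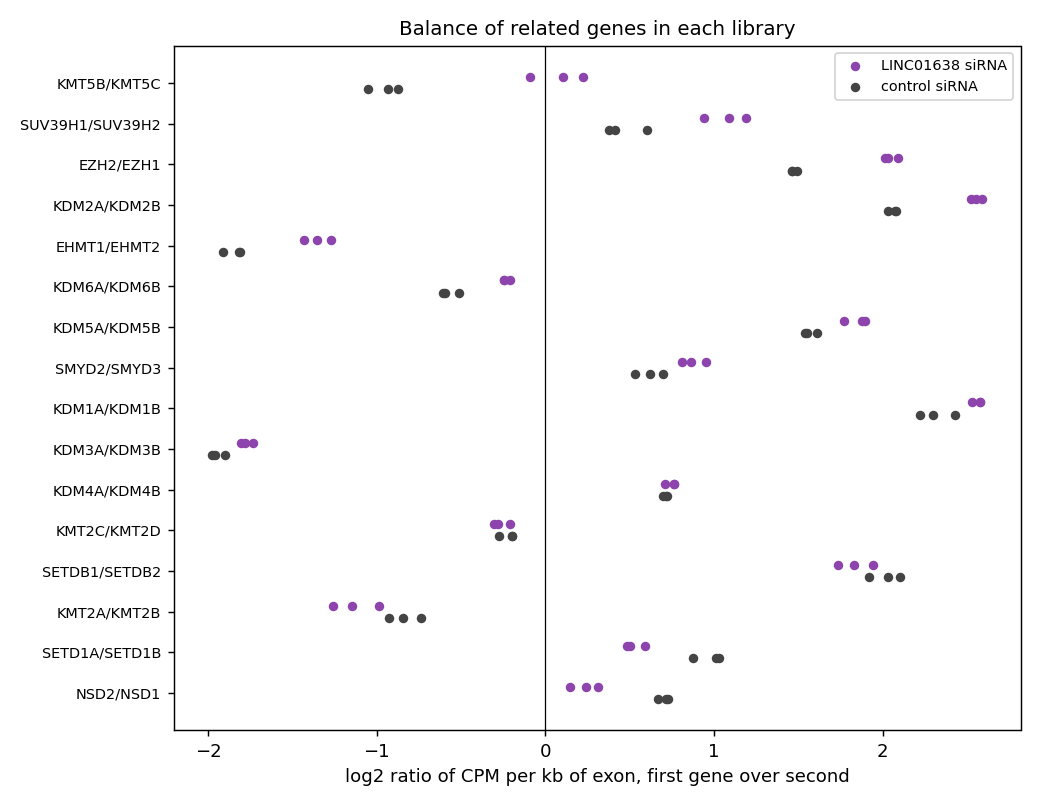
Each row is 1 pair of relatives, and each point is the log2 ratio of their length-scaled levels in 1 library, purple for LINC01638 siRNA and grey for control siRNA. KMT5B over KMT5C shows the widest gap between the groups (1.03), and 3 pairs overlap.

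Among the remaining SETD genes 4 of 5 were higher and none was lower. SETD5, the most abundant of them per kilobase, was at 220, 193 and 210 CPM in LINC01638 siRNA libraries, against 175, 179 and 180 CPM in control siRNA libraries (0.22, SE 0.0515, edgeR adjusted p = 0.00113). SETD3, known as an actin histidine methyltransferase, was higher by 0.36 (edgeR adjusted p = 1.32e-05), SETD4 by 0.37 and SETD6 by 0.31 (lost under 2 of the 15 other settings), while SETD9 was not called (0.02). Of the SMYD genes tested, 3 of 4 were lower and none was higher. Both lists are short, and of protein-coding genes tested 28.6% were higher and 36.3% lower. SMYD5 was at 32.1, 33.7 and 32.2 CPM in LINC01638 siRNA libraries, against 39.1, 42.3 and 37.5 CPM in control siRNA libraries (-0.28, SE 0.0591, edgeR adjusted p = 0.000452). SMYD3 (-0.34) and SMYD4 (-0.29) were lower by similar amounts, and SMYD2, a methyltransferase of p53, had all LINC01638 siRNA values below all control siRNA values without a call (-0.08).

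The PRDM genes encode zinc finger proteins with a SET-related domain, and only some are known to methylate histones. Of 15, 9 were tested, 3 were higher and 6 were not called. PRDM2, an H3K9 methyltransferase, was higher by 0.50 (SE 0.0488, edgeR adjusted p = 3.70e-08). PRDM4, the most abundant per kilobase over all 6 libraries (PRDM2 stood above it with LINC01638 siRNA alone), was at 48.8, 46.8 and 49.6 CPM in LINC01638 siRNA libraries and 45.4, 45.2 and 42.2 CPM in control siRNA libraries, a small difference (0.13, SE 0.0538, edgeR adjusted p = 0.0459) that was lost under 7 of the 15 other settings. PRDM1 (BLIMP1), a repressor best known in lymphocytes, had 19, 17 and 25 counts in LINC01638 siRNA libraries and 12, 5 and 8 counts in control siRNA libraries (edgeR adjusted p = 0.0230), a call lost under 5 of the 15 other settings, while a stricter filter left the gene untested. The log2 fold changes of the 6 without a call ran between -0.24 and 0.08. The 10 enzymes below the filter were KDM4E, KDM4F, KDM5D, PRDM7, PRDM9, PRDM12, PRDM13, PRDM14, PRDM16 and SMYD1. Of these, 4 had no counts and the others had at most 7 in any library, where 3 counts in the smallest library correspond to 0.0687 CPM.

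Scaled by exonic length, the union of annotated exons, the order of the enzymes differed between the groups. KDM1A stood at rank 3 with LINC01638 siRNA and at rank 1 in control siRNA libraries, at 22.5 ± 0.565 CPM per kilobase with LINC01638 siRNA and 32.9 ± 0.641 with control siRNA (SD, n = 3 each). KDM2A stood at rank 1 with LINC01638 siRNA, at 24.0 ± 0.662 CPM per kilobase, against 18.8 ± 0.716 with control siRNA. With LINC01638 siRNA its neighbours KDM3B (23.2 ± 0.658), KDM1A and KDM5C (22.2 ± 0.166) followed, and the intervals of mean ± SD of neighbours in this order overlapped. In control siRNA libraries NSD2, KDM3B (21.8 ± 0.869) and EHMT2 (20.8 ± 0.631) followed KDM1A, and the intervals of neighbours among these 3 overlapped. With LINC01638 siRNA, NSD2 ranked 10 at 16.2 ± 0.408 and EHMT2 ranked 15 at 14.0 ± 0.792 CPM per kilobase.

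JmjC and SET genes outside the symbol rule gave 5 higher and 2 lower of 12. JMJD1C, a JmjC relative of the KDM3 enzymes, was higher by 0.97 on the log2 scale (edgeR adjusted p = 1.04e-11), more than KDM6A, and PHF8, a demethylase of H3K9 and H4K20, by 0.67 (edgeR adjusted p = 8.87e-10). HR (-0.70) and RIOX2 (-0.41) were the lower ones. Of 13 genes that supply the methyl donor or 2-oxoglutarate 6 were lower and none was higher. MTR, the methionine synthase that regenerates methionine from homocysteine, averaged 35.1 CPM with LINC01638 siRNA and 89.9 CPM with control siRNA (-1.36, SE 0.0600, edgeR adjusted p = 8.65e-13). IDH1, an enzyme that makes 2-oxoglutarate, was at -0.53 and MTHFD1, a folate cycle enzyme, at -0.48, while MAT2A, which makes S-adenosylmethionine, was not called (-0.04). The RNAs named after these enzymes, antisense transcripts, divergent transcripts and pseudogenes, numbered 25 in the tables, and of those with enough reads to test, KMT2E-AS1, KDM4A-AS1, PRDM6-AS1, PRDM10-DT, KDM2B-DT, SMYD3-IT1, KMT5AP1 and KMT5AP2 were not called, at adjusted p of 0.140 to 0.939.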

How the data were processed

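Total RNA was depleted of ribosomal RNA and made into directional libraries, per the labels' protocols, and STAR 2.7.10b and R 4.2.1 with the GRCh38 (hg38) genome are named in the submitters' processing notes. The counts, as deposited by the authors, are whole reads per gene without normalization, 1 table per library. For the annotation release and the mapping settings, the sources used here give nothing. The reverse-strand column was used. Rows that name no gene (unmapped, outside exons of the counted strand at 8.32% to 15.1% of mapped reads, over several genes at 7.02% to 7.76%, and several places, listed as 0) stayed out of library sizes. Since reads mapping to several places are listed as 0, near-identical copies are counted from uniquely mapped reads.

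Groups and replicate letters came from the titles. Symbols came from a gene name table (61918 identifiers matched exactly, 754 without version), and gene class, coordinates and exonic length (union of annotated exons) from GENCODE 29 on GRCh38, not necessarily the release behind the counts. Low genes were removed by filterByExpr of edgeR (at least 10 counts, total at least 15), and the rest were scaled by TMM and compared with edgeR 4.0.16 quasi-likelihood F tests (robust, group as the only term), with Benjamini-Hochberg adjustment over 18569 genes and a threshold of 0.05. SE was taken as the size of the log2 fold change over the root of F. The common biological coefficient of variation was 5.62%. No 2 libraries of a group agreed within counting noise (chi-square per degree of freedom 5.94 to 16.5). Same-letter libraries did not deviate together (correlations -0.0753, -0.0203 and -0.0177), so letters were not used as pairs. The tests were first run on simulated data. DESeq2 1.42.0, limma 3.58.1 (voom), other scalings, filters and columns, and each library left out were alternatives. R 4.3.3 and Python 3.11.15 were used.

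The text names enzymes past the threshold with an absolute log2 fold change of at least 0.58 and a mean of at least 1 CPM, the most abundant enzyme per kilobase of each role, the genes of the title and up to 3 called genes with the lowest p of each partner list. SUV39H2, KMT2A, KMT2D, KMT5C, EZH1, EZH2, PRDM1, KRT8, CDH1, EPCAM, COL1A1, CD14, CSF1R, PTPRC, CD3E, MKI67, PCNA, MCM2, CDK1 and MAT2A were added. The members and lists were chosen with earlier results of these data known. Counting-error limits of 3 counts cover counting error only.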

Additional observations from a re-analysis of the deposited data

Results flagged for a closer look

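Reads that mapped outside annotated exons of the counted strand, reads on the opposite strand among them, enter no gene value here. They took 13.2% ± 1.67 of mapped reads in LINC01638 siRNA libraries and 9.18% ± 0.864 in control siRNA libraries (SD, n = 3 each). All 3 LINC01638 siRNA libraries lay above all 3 control siRNA libraries, and this is what marked the value for a closer look. An exact two-sided permutation test of 3 against 3 libraries cannot go below p = 0.1.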

How the results depend on the processing

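The limits are 1 siRNA, 1 cell line, 3 libraries per group and calls among many small changes. Across 15 other settings the enzymes counted as higher numbered 26 to 34 and as lower 8 to 13, and all calls among the enzymes kept their direction. Over all genes tested the shares ran from 13.1% to 34.2% higher and from 15% to 34.2% lower. Of the 41 called enzymes, 31 kept their call under each setting (23 higher, 8 lower). The 10 that lost it, or for PRDM1 also went untested, under at least 1 setting were KDM2B, PRDM4, KDM4D, PRDM1, SETD1A, EZH1, KDM4C, SETD6, KMT2D and KMT5C. The median log2 fold change of the enzymes (0.10) was 0.20 with library totals alone, 0.0623 with the column that ignores strand and 0.14 with protein-coding genes only, and 0.0869 to 0.128 when 1 library was left out. With the column that ignores strand, the difference in paralogue balance SETDB1/SETDB2 was -0.0686 and in paralogue balance KDM4A/KDM4B 0.0097. With the replicate block 28 enzymes were higher and 10 lower, with 4676 and 5286 genes in all. With each library left out 26 to 28 were higher and 9 to 11 lower. The shares over all genes tested were then 22.9% to 24.5% higher and 26.4% to 28.3% lower. Without a filter 68 enzymes were tested, 26 higher and 12 lower, against 13.1% and 15% of all genes tested. DESeq2 gave 29 higher and 10 lower, against 25.5% and 27.5% of all genes. With limma-voom 30 were higher and 11 lower, against 26.3% and 29.6%. The causes were not tested.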
